A study of Homo sapiens with 4 samples.

Results

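The 6 genes described here encode receptor tyrosine kinases: *EGFR*, *ERBB2* and *ERBB3* of the EGF receptor family, *MET*, *AXL* and *IGF1R*. They were chosen by name as a receptor group and matched by gene symbol among the 15017 symbols with a peak in RNA immunoprecipitation sequencing (RIP-seq) of NSUN2. They carried 62 of the 48104 peaks called in the lactate IP and 113 of the 95785 peaks called in the ddH2O IP. After the lists were merged, 124 of the 116484 merged peaks overlapped a receptor peak by at least 1 base.

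The cells were wild-type PANC-1, an established line of human pancreatic ductal adenocarcinoma, grown in DMEM with serum. One group received 30 mM sodium lactate for 24 h, and the control group received ddH2O, the vehicle, for 24 h. RNA bound to NSUN2 was pulled down with an anti-NSUN2 antibody (IP), and RNA set aside before the pull-down served as the input. Each group had 1 IP and 1 input library, 4 libraries in all, so no value below has a replicate error, and every comparison is between libraries rather than between conditions. The authors' fold enrichment sets each IP against its own input, whereas the normalized read density sets the 2 IPs against each other.

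Receptor tyrosine kinases span the plasma membrane, bind a growth factor outside the cell and phosphorylate tyrosines inside it, which recruits adaptor proteins and starts RAS, MAPK and PI3K signalling. EGFR binds EGF and related ligands, ERBB2 has no known ligand of its own and acts as a partner in dimers, and ERBB3 binds neuregulins but is a weak kinase. MET is the receptor for hepatocyte growth factor, AXL for GAS6, and IGF1R for insulin-like growth factors. NSUN2 is a methyltransferase that places 5-methylcytosine in tRNA and in some mRNAs. A RIP-seq peak is a stretch of transcript with more reads in the IP than the peak caller expected from the input, and it does not by itself show methylation.

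Depth set how far these data could be read. Reads recovered in the windows of the merged peaks summed to 9756042 for lactate and 9553844 for ddH2O. Without the windows of the mitochondrial rRNA *MT-RNR2* and the nuclear RNA *MALAT1*, the sums were 1945000 and 3536821, which was 1.82-fold more with ddH2O. The depth of the inputs is unknown. Of 7 markers of PANC-1 or ductal epithelium, 5 had a peak with lactate and 7 with ddH2O. *KRT8* and *KRT18*, keratins of simple epithelium, were dense in both IPs, at 1356 per kb with lactate and 1182 with ddH2O for *KRT8* and at 2455 and 2254 for *KRT18*, while the adhesion molecule *EPCAM* had 0.96 and 2.09 and the ductal keratin *KRT7* 9.81 and 16.5. *PECAM1* of endothelium, *INS* of beta cells and *PRSS1* of acinar cells had no peak, while *PTPRC* of leukocytes had 1 ddH2O peak and *COL1A1* of fibroblasts had 1 lactate peak, with densities of 29.3 and 20.9, above those of *EPCAM* and *KRT7*.

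The receptors differed widely in how many peaks they held. *EGFR* had 23 lactate peaks and 38 ddH2O peaks, and *IGF1R* had 16 and 47. *MET* had 11 and 13 peaks, and *AXL* had 10 and 13. *ERBB2* had 2 lactate peaks and 1 ddH2O peak, and *ERBB3* had a single peak, in the ddH2O list. The ddH2O list held 1.82 times as many receptor peaks as the lactate list, against 1.92 times over all protein-coding genes. Among the receptors with 10 or more peaks, this ratio ran from 1.18 for *MET* to 2.94 for *IGF1R*. Per 100 kb of gene span, *AXL* was the most densely covered, with 23.5 lactate and 30.6 ddH2O peaks over its 42.5 kb, while *IGF1R*, which spans 316 kb, had 5.06 and 14.9.

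**Figure D1:**
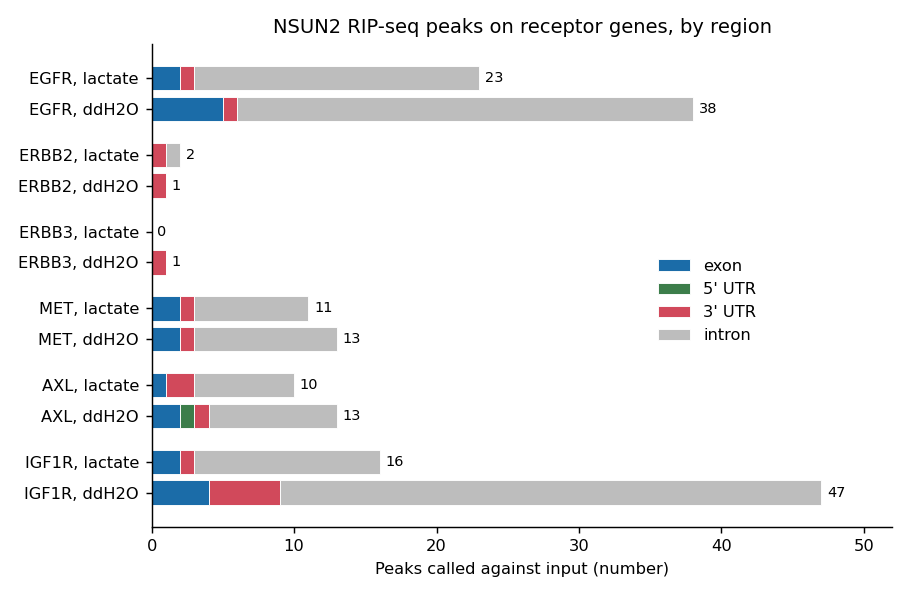
Number of called peaks on each receptor gene in the lactate and the ddH2O list, stacked by transcript region. Intron peaks make up most of every bar with 10 or more peaks, and the widest gap between the lists is that of IGF1R, with 16 and 47 peaks.

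Most receptor peaks lay in introns. The intron share was 79.0% in the lactate list (95% Wilson interval 67.4 to 87.3%, 49 of 62) and 78.8% in the ddH2O list (70.3 to 85.3%, 89 of 113). Over all protein-coding genes it was 61.5% and 61.2%, below the lower bound of the receptors in either list. The share in the 3′ UTR was 9.68% (4.51 to 19.5%) with lactate and 8.85% (4.88 to 15.5%) with ddH2O, against 18.1% and 15.8% over protein-coding genes. These intervals cover counting error only, and peaks of 1 gene share a transcript, so they are not independent of each other. *EGFR*, which has long introns, supplied 20 of the 49 lactate intron peaks and 32 of the 89 ddH2O ones, and *IGF1R*, the longest of the 6 genes, supplied 13 and 38.

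Receptor peaks were also found in both lists more often than peaks in general. Of the lactate peaks, 50 of 62 overlapped a ddH2O peak (80.6%, 69.1 to 88.6%), against 58.5% over protein-coding genes. Of the ddH2O peaks, 50 of 113 overlapped a lactate peak (44.2%, 35.4 to 53.4%), against 29.9%. Among the 4 receptors with 10 or more peaks in each list, *AXL* had the highest share of its lactate peaks found again, 9 of 10, and *IGF1R* the lowest share of its ddH2O peaks found again, 14 of 47. That *IGF1R* share was 29.8% (18.7 to 44.0%), level with protein-coding genes, whereas 14 of its 16 lactate peaks were found again (87.5%). The single ddH2O peak of *ERBB3* was not in the lactate list. In the lactate list 35 of the 62 receptor peaks had a q-value below 0.05, and in the ddH2O list 65 of the 113 did, so the remainder rest on the caller's unadjusted threshold. These shares were 56.5% (44.1 to 68.1%) and 57.5% (48.3 to 66.2%), against 44.6% and 50.9% over protein-coding genes. The median fold over input was 4.02 with lactate and 4.25 with ddH2O, against 3.24 and 3.03 over protein-coding genes.

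The densest merged peak of each receptor lay in its 3′ UTR, and the order of the receptors by that peak was nearly the same in the 2 IPs. The *EGFR* peak at chr7:55210762-55211546 (GRCh38) held 439 lactate and 1114 ddH2O reads within a window of 2000 bases, which gave normalized densities of 336 and 365 per kb. The *AXL* peak at chr19:41261283-41261792 held 441 and 730 reads, with densities of 332 and 244. The *EGFR* and *AXL* counts in the lactate IP overlapped in their exact 95% Poisson intervals, 399 to 482 and 401 to 484, whereas in the ddH2O IP *EGFR* was above *AXL*.

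Below these came *MET*, with 200 and 444 reads at chr7:116797840-116798411 and densities of 143 and 157. *ERBB2* followed with 156 and 358 reads at chr17:39728085-39728696 and densities of 109 and 129. The Poisson intervals of *MET* and *ERBB2* overlapped in the lactate IP (173 to 230 and 132 to 182 reads) but not in the ddH2O IP (404 to 487 and 322 to 397). The end of the *ERBB2* peak also lies on the span of *MIEN1*, and the library kit does not keep strand, so reads of these neighbours cannot be told apart there.

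*IGF1R* was lower again, with 77 and 137 reads at chr15:98959438-98959954 and densities of 50.7 and 53.1. *ERBB3*, the weak kinase of the family, came last with 15 and 19 reads at chr12:56101693-56101892 and densities of 8.97 and 8.92, and its only peak had a fold over input of 1.62 and a q-value of 1. Both neighbouring gaps, *ERBB2* to *IGF1R* and *IGF1R* to *ERBB3*, were larger than the counting intervals in either IP. Of 12397 protein-coding genes that had a merged peak, *EGFR* ranked 301 by its highest density with lactate and 201 with ddH2O, *AXL* 307 and 403, and *ERBB3* 7247 and 7866. By number of merged peaks *IGF1R* ranked 157 and *EGFR* 229, so *IGF1R* combined many peaks with a modest density in its densest window, where it ranked 2681 and 2795.

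**Figure D2:**
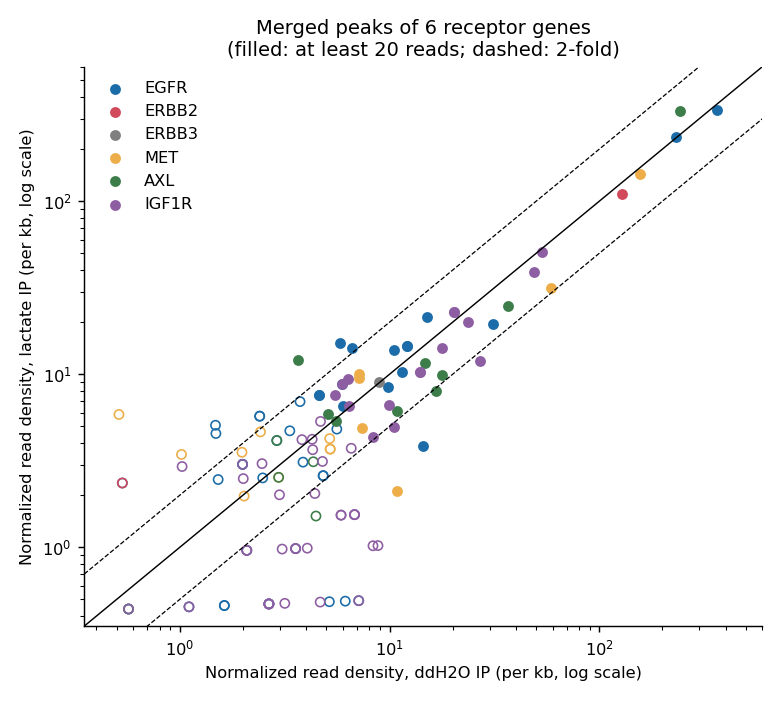
Normalized read density (per kb) of the 124 receptor merged peaks in the lactate IP against the ddH2O IP, both axes on a log scale, with the line of equality and dashed lines at 2-fold. Of the 49 peaks with at least 20 reads (filled), 3 lie above and 5 below the 2-fold lines, while peaks with fewer reads (open) scatter widely, many at the lactate floor where no read was counted and only the 1 read that MAnorm adds remains.

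Between the IPs, the densities of these leading peaks were close. On the authors' MAnorm scaling the log2 ratio of lactate over ddH2O was -0.12 for *EGFR* (95% exact counting interval -0.28 to 0.04), -0.23 for *ERBB2* (-0.52 to 0.04), -0.13 for *MET* (-0.38 to 0.11), -0.07 for *IGF1R* (-0.50 to 0.34) and 0.01 for *ERBB3* (-1.09 to 1.04). Only the *AXL* interval lay off 0 on this scaling, with a log2 ratio of 0.45 (0.27 to 0.62). A second scaling used the sum of reads in each IP, leaving out *MT-RNR2* and *MALAT1*, and is called library sums below. On it the *AXL* ratio was 0.14 (-0.04 to 0.31), while the intervals of *EGFR* (-0.48, -0.64 to -0.32), *ERBB2* (-0.33, -0.62 to -0.06) and *MET* (-0.28, -0.54 to -0.04) lay below 0. The receptors whose intervals left 0 thus changed with the scaling, and the ratio for *IGF1R* changed sign, to 0.04.

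Set against the inputs, the peaks of *EGFR*, *ERBB2*, *MET* and *IGF1R* were further apart, and *AXL* had the opposite order. The *ERBB2* 3′ UTR peak had a fold over input of 5.61 with lactate and 25.6 with ddH2O, and the *IGF1R* 3′ UTR peak had 5.86 and 23.6. For the *EGFR* 3′ UTR peak the folds were 1.76 and 4.46, and for that of *MET* 2.18 and 3.66. *AXL* differed least, with 3.68 and 4.58. These 5 folds were lower with lactate although the densities in the IPs were within 1.36-fold of each other. A fold also depends on the input library, whose part was not tested.

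Over the 49 receptor merged peaks found in both lists, the fold over input was lower with lactate in 34, with a median log2 ratio of -0.22, and over all 26381 merged peaks found in both lists it was lower in 15570. It was past 2-fold lower in 9 of the 49 and past 2-fold higher in 3. Over all shared merged peaks, 17.1% were past 2-fold lower and 7.56% higher, and the median was -0.18, so the receptors sat near the background past 2-fold and in the median. *AXL* had a lower fold in 7 of 8 shared peaks and *IGF1R* in 12 of 14, while *EGFR* had a lower fold in 9 of 17 and *MET* in 5 of 9.

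Besides the peaks labelled 3′ UTR, *EGFR* and *MET* each held a strong peak labelled exon. That label does not say whether the sequence is coding, and the *EGFR* summit lies 5980 bases before the gene end. The *EGFR* exon peak at chr7:55205259-55206025 lay 187 kb from the gene start and held 318 and 684 reads, with densities of 235 and 232 and folds over input of 9.71 and 10.6. It was called a peak in both lists, and its log2 ratio was 0.02 (library sums, -0.24). The *MET* exon peak at chr7:116699589-116700205, 27.7 kb from the start, held 48 and 149 reads and had densities of 31.3 and 58.6. Its log2 ratio of -0.90 (library sums, -0.75) stopped short of 2-fold, and its folds of 19.3 and 14.7 were the highest of any *MET* peak in either list.

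Some exon peaks had next to no reads counted in their window, although the authors had called them as peaks against the input. Of the 14 receptor merged peaks annotated as exon, 3 had no read in the window of either IP, namely 1 each of *AXL*, *EGFR* and *IGF1R*, and 1 more of *EGFR* had a single read. Over protein-coding genes, 4.48% of exon merged peaks and 0.565% of intron merged peaks had no read in either IP. None of the 3 was in the lactate list. Their folds over input in the ddH2O list were 2.43, 2.43 and 4.25, and that of *IGF1R* had a q-value of 0.0022. An empty window thus does not mean that the call had no reads, and why call and count differ was not tested.

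Intron peaks of *EGFR* were spread over much of the gene, from 1.68 kb to 167 kb after its start, and 6 of its 43 merged peaks had their summit in the first 10 kb. The one with the most reads over both IPs, at chr7:55026200-55026924, held 31 and 75 reads and had the highest fold over input of all receptor peaks, 27.8, in the ddH2O list, against 7.58 in the lactate list. A nearby intron peak at chr7:55022794-55023712 held 35 reads in each IP. *IGF1R* introns reached 37 and 48 reads, in a pair of merged peaks 65.2 and 65.9 kb from the start whose windows hold the same reads. The *AXL* intron peak with the most reads held 16 and 40, at chr19:41246246-41246644, and *MET* introns did not exceed 17 reads with lactate or 22 with ddH2O. The only *ERBB2* intron peak held 4 reads with lactate and none with ddH2O.

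**Figure D3:**
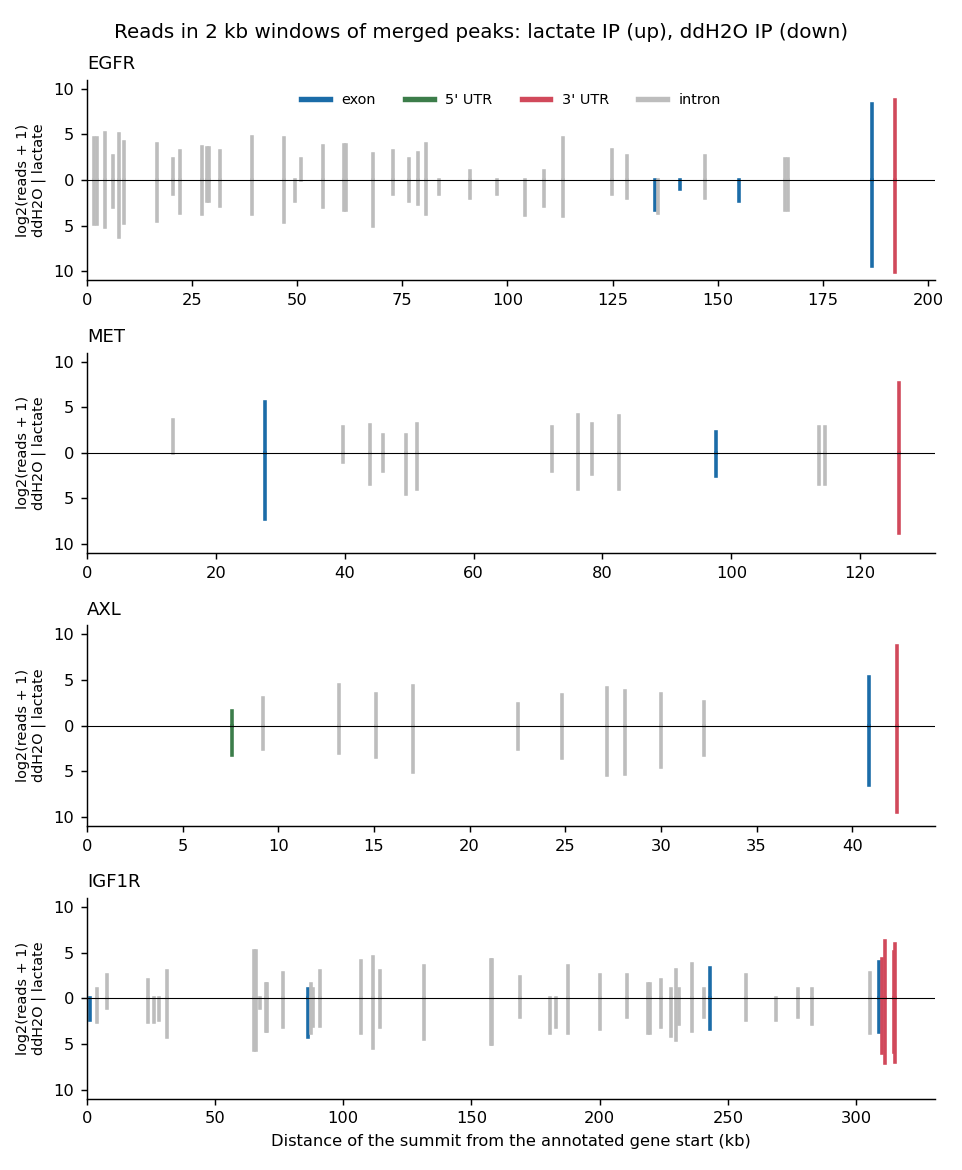
Reads in the 2 kb window of each merged peak along EGFR, MET, AXL and IGF1R, as log2(reads + 1) upward for the lactate IP and downward for the ddH2O IP, against the distance of the summit from the annotated gene start in kb. In each gene the tallest bars stand at the 3′ end, and intron peaks with fewer reads run along the rest of the gene.

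Few receptor peaks differed past 2-fold between the IPs. Of the 124 merged peaks, 49 held at least 20 reads over both IPs, and among these 3 were past 2-fold higher with lactate and 5 lower. Over all 37925 merged peaks with that many reads, 7.65% were past 2-fold higher and 18.6% lower. The median log2 ratio was -0.07 for the receptors and -0.20 for all. With library sums the counts turned to 10 higher and 2 lower, against 17.0% and 8.77% over all peaks, and the medians were 0.14 and 0.13, so neither direction held under both scalings.

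The 3 higher peaks were all in introns, of *EGFR* and *AXL*. The *AXL* peak at chr19:41232131-41232645, called only in the lactate list, held 21 and 7 reads, a log2 ratio of 1.72 (0.55 to 3.32). The *EGFR* peak at chr7:55058123-55058631 held 26 and 12 reads, a log2 ratio of 1.39 (0.42 to 2.58), and its fold over input was also higher with lactate, 10.99 against 4.33. A further *EGFR* peak at chr7:55131518-55132583 held 24 and 14 reads, a log2 ratio of 1.09 (0.12 to 2.19), whereas its fold over input was 4.79 with lactate and 6.67 with ddH2O. All 3 were also past 2-fold higher with library sums. The window of the *AXL* peak overlaps that of a neighbouring merged peak.

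The 5 lower peaks belonged to 4 receptors. The *MET* intron peak at chr7:116721563-116721987 held 3 and 22 reads (log2 ratio -2.35, -5.08 to -0.96), and the *EGFR* intron peak at chr7:55086743-55087293 held 6 and 31 (-1.91, -3.64 to -0.80). These 2 were lower past 2-fold with library sums as well. The other three, an *AXL* intron peak with 13 and 37 reads (-1.05), an *IGF1R* intron peak with 8 and 22 (-1.08, -2.56 to 0.04) and an *IGF1R* 3′ UTR peak at chr15:98958385-98958722 with 19 and 63 (-1.18), were within 2-fold on that scaling. The last lies 310.0 kb from the gene start, just before the densest *IGF1R* peak, which held 77 and 137 reads and had a log2 ratio of -0.07. The windows of these neighbours overlap, as do the counting intervals of their ratios (-2.05 to -0.47 and -0.50 to 0.34). The *AXL* window also overlaps that of the *AXL* intron peak with 16 and 40 reads, which was within 2-fold (-0.85). Of the 5 lower peaks, only that of *EGFR* has a window that overlaps no neighbour's. Among peaks with at least 20 reads, the highest MAnorm ratios of *MET* and *IGF1R* were within 2-fold and passed it with library sums, at an intron peak of *MET* with 17 and 15 reads (0.49, library sums 1.03) and an exon peak of *IGF1R* with 15 and 12 reads (0.58, library sums 1.16). That *IGF1R* peak was labelled exon in the lactate list and 3′ UTR in the ddH2O list.

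**Figure D4:**
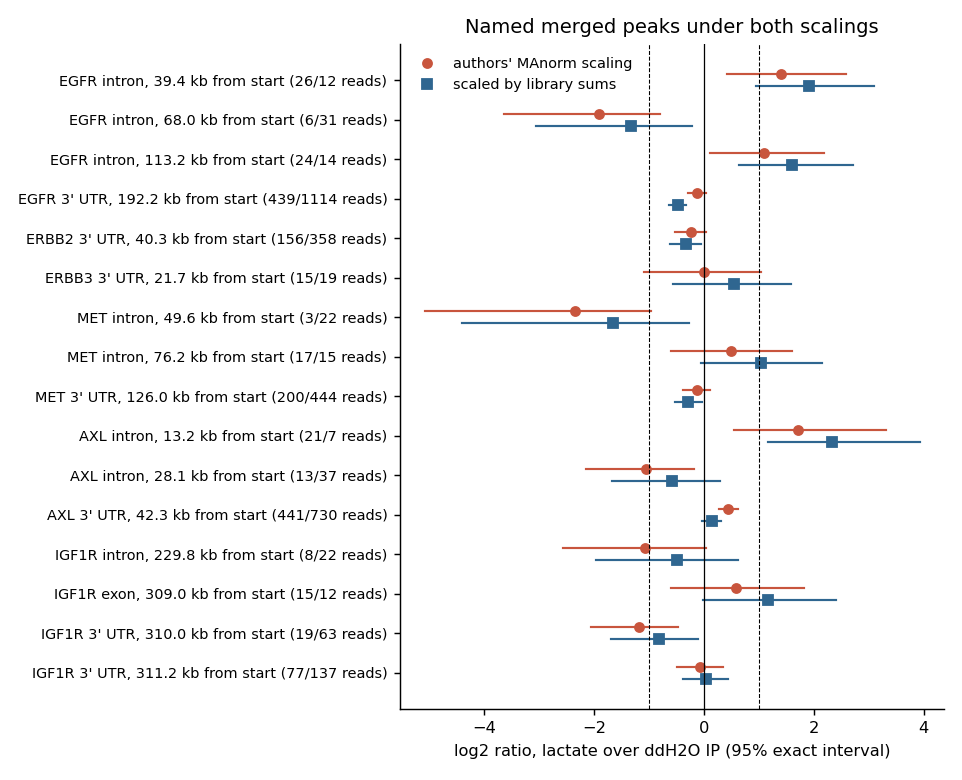
Log2 ratio of lactate over ddH2O for the named merged peaks of each receptor, with 95% exact counting intervals, on the authors' MAnorm scaling (circles) and scaled by library sums (squares). The 3′ UTR peaks with the most reads have narrow intervals near 0, and the peaks past 2-fold (dashed lines) have few reads and wide intervals.

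Testing the reads of the 2 libraries with an exact binomial test, adjusted over all merged peaks and with no read minimum, called 3 receptor peaks past 2-fold higher and 10 lower, against 2.57% and 8.65% of all 116484. Of the 8 peaks named above, 3 did not pass it, the *EGFR* peak with 24 and 14 reads, the *AXL* peak with 13 and 37 and the *IGF1R* intron peak with 8 and 22. The lower peaks included 2 with no lactate read and 13 ddH2O reads, in an intron each of *EGFR* and *IGF1R*, and the higher ones a *MET* intron peak with 11 lactate reads and none with ddH2O. That *MET* peak also lies on the span of the long noncoding RNA gene *COMETT*. Such a test compares 2 libraries and says nothing of the spread between cultures.

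The balance of intron reads against exon and UTR reads within a gene does not depend on how the libraries were scaled. For *EGFR*, 27.8% of the lactate reads fell in intron windows (25.1 to 30.6%, 291 of 1048) and 16.5% of the ddH2O reads (14.9 to 18.1%, 355 of 2158), where of windows that overlapped only the one with the most reads was counted. For *MET* the shares were 24.1% (19.8 to 29.0%) and 11.8% (9.58 to 14.4%). *AXL* had 17.1% and 15.3%, and *IGF1R* had 56.3% and 55.6%, with overlapping intervals in both genes. Intron windows thus held a larger part of the counted *EGFR* and *MET* reads with lactate. Some called exon peaks had no read in their window, as given above, and what this does to these shares was not tested.

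**Figure D5:**
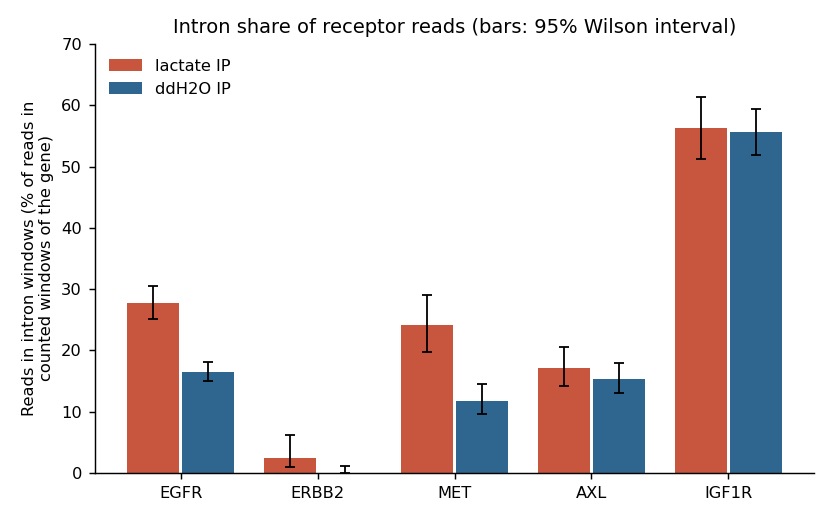
Share of each receptor's window reads that fell in intron windows (percent), for the lactate IP and the ddH2O IP, with 95% Wilson intervals. The bars of EGFR (27.8% and 16.5%) and MET (24.1% and 11.8%) differ between the IPs beyond their intervals, and those of AXL and IGF1R do not.

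As an odds ratio of intron against exon and UTR reads, lactate over ddH2O, this was 1.95 for *EGFR* (95% interval 1.64 to 2.33), 2.37 for *MET* (1.68 to 3.34), 1.14 for *AXL* (0.85 to 1.53) and 1.03 for *IGF1R* (0.80 to 1.33). The same shift was common in these libraries. Among 2410 protein-coding genes with at least 200 reads and both kinds of window, the median odds ratio was 1.42, with quartiles of 1.01 and 1.93, and 75.7% of genes were above 1. The odds were past 2-fold higher with lactate in 22.7% of these genes and past 2-fold lower in 3.49%. *MET* lay above the upper quartile of genes, *EGFR* was close to it (1.78 without its densest window), and *AXL* and *IGF1R* between the lower quartile and the median. This comparison was chosen after the values were seen.

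By gene, 2 of the 6 receptors had a merged peak past 2-fold higher (*EGFR* and *AXL*) and 4 had one past 2-fold lower (*EGFR*, *MET*, *AXL* and *IGF1R*). Over the 8819 protein-coding genes where some merged peak held at least 20 reads, these shares were 15.9% and 36.9%. With library sums the balance turned round, to 4 receptors with a higher peak and 2 with a lower one, against 29.1% and 21.1% of the genes. A gene with many peaks has more chances of either. The rest of the pathway was read from 4 gene lists in the same way, and the shares over all genes given here are the background for their counts. Some listed genes also hold many peaks, with 64 merged peaks on *NRG1* and 64 on *PTPRJ*.

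Of 17 other receptor tyrosine kinases, 10 had a lactate peak and 13 a ddH2O peak, and *FGFR2*, *FGFR4*, *PDGFRA* and *NTRK3* had none. Of the 7 with enough reads, 2 had a higher and 2 a lower peak on the MAnorm scaling, and 4 and 0 with library sums. *FGFR1*, a fibroblast growth factor receptor, was denser than any of the 6 members, with 737 and 1212 reads in its 3′ UTR and densities of 578 and 387. *DDR1*, a collagen receptor, had 142 and 297 reads and densities of 98.5 and 108. *ERBB4*, the remaining EGF receptor family gene, had 9 merged peaks, none with 20 reads.

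Of 16 ligand genes, 7 had a lactate peak and 11 a ddH2O peak, and *EGF*, *TGFA*, *BTC*, *NRG4* and *IGF1* had none. Of the 7 with enough reads, 1 had a higher and 4 a lower peak, and 4 and 2 with library sums. *NRG1* held 14 and *NRG2* 7 of the 30 ligand peaks with enough reads. The densest were *IGF2*, which encodes an IGF1R ligand, with 45 and 102 reads, and *EREG*, which encodes an EGFR ligand, with 42 and 109. *GAS6*, the ligand of AXL, had 43 and 38 reads at its densest peak, and *HGF*, the ligand of MET, had 0 and 2.

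All 9 adaptor and docking genes had a peak in both lists. Of the 8 with enough reads, 2 had a higher and 4 a lower peak, and 4 and 4 with library sums. *GRB2*, which links phosphorylated receptors to SOS, held 285 and 391 reads in its densest peak, and *SHC1*, a scaffold for GRB2, held 245 and 350. Of 19 inhibitors and endocytic regulators, 16 had a lactate and 17 a ddH2O peak. Of the 14 with enough reads, 7 had a higher and 5 a lower peak, and 9 and 3 with library sums. *CBL*, a ubiquitin ligase that targets EGFR and MET for degradation, held 280 and 473 reads, and *PTPRJ*, a receptor-type phosphatase, held 201 and 257. The median log2 ratio over the peaks with enough reads was 0.06 for the other receptors (library sums, 0.30), -0.70 for the ligands (-0.25), 0.09 for the adaptors (0.27) and 0.18 for the inhibitors (0.54), beside -0.20 (0.13) over all peaks.

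The genes most like each receptor in 4 values (the number of peaks in each list and the highest density in each IP) were *CDK6* for *EGFR*, *RTKN* for *ERBB2*, *CDK2AP1* for *ERBB3*, *ARRB1* for *MET*, *AKT2* for *AXL* and *COMMD1* for *IGF1R*. *CDK6* had 20 and 39 peaks with densities of 386 and 341, beside 23 and 38 peaks and 336 and 365 for *EGFR*. *COMMD1* had 14 and 45 peaks with densities of 42.1 and 58.7, so the many ddH2O peaks of *IGF1R* at a modest density had a near match. The distances on the log2 scale ran from 0.07 for *ERBB3* to 0.36 for *IGF1R*.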

How the data were processed

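RIP-seq of NSUN2 was done in 4 libraries of PANC-1 cells, 1 IP and 1 input for lactate and for ddH2O, with groups taken from the sample labels. The submitters' processing notes name fastp 0.20.1, HISAT2 2.1.0, MACS2 2.2.7.1, bedtools 2.29.2, HOMER 4.11.1 and DiffBind, and the build GRCh38. The authors called peaks separately for each IP against the matching input. Their deposited lists give each peak's gene, transcript region, fold enrichment (a ratio) and p-value and q-value, both also as −log10. The authors merged the lists with MAnorm and deposited a normalized signal (read density) for each IP. The deposited log2 ratio, mean and P-value of that comparison were not used.

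Reads per 2000-base window were computed back from the densities, each taken as reads plus 1 per kb with a line in mean log2 density removed (slope -0.17, intercept 0.20), and 99.998% of windows gave whole reads in both IPs within 0.05. All 175 receptor peaks lay on the RefSeq GRCh38.p14 span of their gene. Coordinates are counted from 1. Merged peaks were assigned the gene and region of overlapping called peaks. The lists label some shared sites of *AXL* and *IGF1R* differently, and the region of the called peak sharing most bases was then used. A difference was counted at a fold over 2 with at least 20 reads over both IPs. Wilson, Poisson and Clopper-Pearson intervals (95%) cover counting error only, since reads without molecular identifiers are not independent molecules. For intron shares, windows were taken in order of their reads and those overlapping one already taken were dropped. Odds ratios had 0.5 reads added to each count. The binomial test was two-sided and exact, with Benjamini-Hochberg adjustment. Scripts were tested on simulated data.

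Named for each receptor were its densest merged peak, those of highest and lowest ratio and all past 2-fold, and for each pathway list the 2 genes with the densest peak. *ERBB4*, *GAS6*, *HGF*, the exon peaks and the intron peaks within 2-fold were added after their values were seen. Members, lists and tests were chosen with earlier results of these data known. The sources differ on the incubation with the antibody and on the salt of lactate, and the labels were followed. No genome sequence was used here. Alternatives were a fold of 4, a q-value below 0.05, bases covered, an overlap of 50%, read minimums of 0 and 50, library sums, non-overlapping windows and the binomial test. All windows, and leaving out the densest window, were added for the intron odds after seeing the data. Python 3.11.15, numpy 2.4.6, pandas 2.3.3, scipy 1.17.1, matplotlib 3.10.9 and bedtools 2.31.1 were used.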

Additional observations from a re-analysis of the deposited data

How the results depend on the processing

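The number of receptor peaks was 31 (lactate) and 60 (ddH2O) at a fold enrichment of at least 4, and 35 and 65 at a q-value below 0.05. When a shared peak had to overlap by 50% on either side, 56.5% (lactate) and 31.0% (ddH2O) of the receptor peaks were shared. The shares over protein-coding genes were computed at 1 base only, so whether the receptors exceeded them at 50% is not known. Receptor merged peaks past 2-fold, 3 higher and 5 lower, came to 12 and 37 with no read minimum, 0 and 2 with at least 50 reads, 10 and 2 with library sums, and 0 and 1 at a fold over 4. No share over all merged peaks was computed with no read minimum, with at least 50 reads or at a fold over 4. Windows that overlap no neighbour left 1 lower peak, also without a share over all merged peaks. The exact binomial test, which had no read minimum, gave 10 lower, some of them with under 20 reads. The median log2 ratio was 0.14 with library sums and -0.30 over all 124 merged peaks with no read minimum. Over all 116484 merged peaks with no read minimum it was -0.50, so peaks in general leaned lower there too. With library sums the log2 ratio of the densest peak was -0.48 for *EGFR* and 0.14 for *AXL*. The intron shares of peaks stayed inside their counting intervals at a fold of at least 4, at a q-value below 0.05 and by bases covered. The intron odds stayed inside theirs with all windows and, for *EGFR*, *MET* and *IGF1R*, without the densest window, and that last alternative gave no value for *AXL*, whose only other exon or UTR window counted held no reads. The cause of these changes was not tested beyond their construction.

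No paired analysis was possible because each group had 1 IP library. Depth limits peaks with few reads, since 75 of the 124 merged peaks held under 20 reads over both IPs.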
